A study of Mus musculus with 8 samples.

Results

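Transcript levels in the epididymal fat of the inbred mouse line DU6i were compared with those of the inbred strain DBA. Epididymal fat is the white fat pad that lies along the epididymis of the male. For each line, RNA from 20 males aged 42 days was combined into 1 pool, and the pool was hybridised to 1 chip A and 1 chip B array of an Affymetrix mouse set, so that the comparison rests on 4 of the 8 arrays of the series. The arrays were chosen by the line named in their titles, and DU6i was set against DBA within chip A and within chip B, over 13069 probe sets after the AFFX controls were left out. The other 4 arrays hold pools of the lines DU6 and DUKs, also of 20 males aged 42 days each, and are given beside the pair to place its values among 4 lines.

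The labels name no treatment, diet or altered allele in any line, and their keywords are leptin, insulin, diabetes, adiposity and selected mouse lines. As general knowledge that the labels do not carry, DU6 is a line bred for high body weight, DU6i was inbred from it, DUKs is the unselected control of that breeding, and DBA is a classical inbred strain of other origin. A pool of 20 animals gives 1 value per probe set with no spread between animals. There was therefore no replicate, no test and no p-value; precision is limited by the number of arrays. In whole fat pads, fewer cells of a type and less RNA per cell cannot be told apart.

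White adipocytes take up fatty acids released from circulating triglyceride, make fatty acids from glucose, store both as triglyceride in a large droplet, and break the store down again when energy is short. They also work as endocrine cells. Leptin, whose transcript level follows the size of the fat stores, acts on the brain to restrain feeding, and adiponectin acts on liver and muscle. The pad also holds vessels, fibroblasts, macrophages and a mesothelial cover, and it lies against the epididymis, the testis and the accessory glands.

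Signals are the deposited linear intensities in arbitrary units. A floor, the 95th percentile of the sizes of the negative signals, was 1022.8 on chip A and 2258.25 on chip B. Signals at or under it were raised to it, and a ratio against such a signal is written as at least so many fold. A probe set was measured when 1 or both arrays of the pair were above the floor, which held for 5556 (3461 of chip A, 2095 of chip B). Of these, 4345 were above it on both arrays, 523 in DU6i alone and 688 in DBA alone. They represent 3466 named genes, each through the probe set that was brightest on average in the 4 lines.

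With no replicates, the error was taken from genes with several probe sets. Over 348 genes with exactly 2 such probe sets, each with both of its signals over the floor, the SD of 1 log2 ratio was 0.34. A difference of 2 such SDs is 1.61-fold, and the 2-fold limit used below, a log2 ratio of 1, is 2.93 SDs. Of 21 probe sets placed on both chips 3 were measured, too few for an error of their own, with gaps between chip A and chip B of 0.39 (median) and 0.80 (largest) on the log2 scale. The error used here covers probe sets, and hybridisation only in part. Probe sets of 1 chip were read on the same arrays, so that a difference shared by all signals of an array is not in it. It also leaves out animals and pools, so that the true error of a ratio may be larger.

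At 2-fold or more, 266 probe sets (4.79%) were higher in DU6i than in DBA and 371 (6.68%) were lower, together 11.5% of those measured. By gene, 127 (3.66%) were higher and 256 (7.39%) lower, together 11.1%. The differences toward DBA were the larger ones. No probe set was 8-fold higher in DU6i and 17 were 8-fold lower, while 29 were 4-fold higher and 50 were 4-fold lower. The middle of the distribution lay near 0, with a median log2 ratio of -0.08 over genes, and 43.7% of genes lay above 0. The 5th and 95th percentiles of the log2 ratio over probe sets were -1.11 and 0.98.

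The 2 arrays of chip A differed in their range of signals. The highest chip A signal was 56404 in DU6i and 32657 in DBA, and the 99th percentile was 34793 and 23450. On chip B the 99th percentiles were 34692 and 33622. On chip A, the 135 probe sets with a mean signal over 20000 had a median log2 ratio of 0.66, and 123 of them lay above 0. On chip B, the 284 such probe sets had a median of 0.10. A bright gene of chip A therefore started from a shifted middle, and a ratio of such a gene may carry that shift. The ratio after quantile normalisation, which gives all arrays of a chip the same distribution, stands beside the main one for many of the genes below. The pools also differed in how far control signal reached toward 5′ ends. The middle probe set of pyruvate carboxylase had 54.5% of its 3′ signal in DU6i and 19.5% in DBA on chip A, and 45.3% and 14.3% on chip B. For actin the 3′ signal over the 5′ signal was alike in both lines, 2.46 in DU6i and 2.33 in DBA on chip A, and 1.72 and 1.90 on chip B. The part of the signal range and of the 5′ signal in the results below was not tested beyond the values given.

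**Figure D1:**
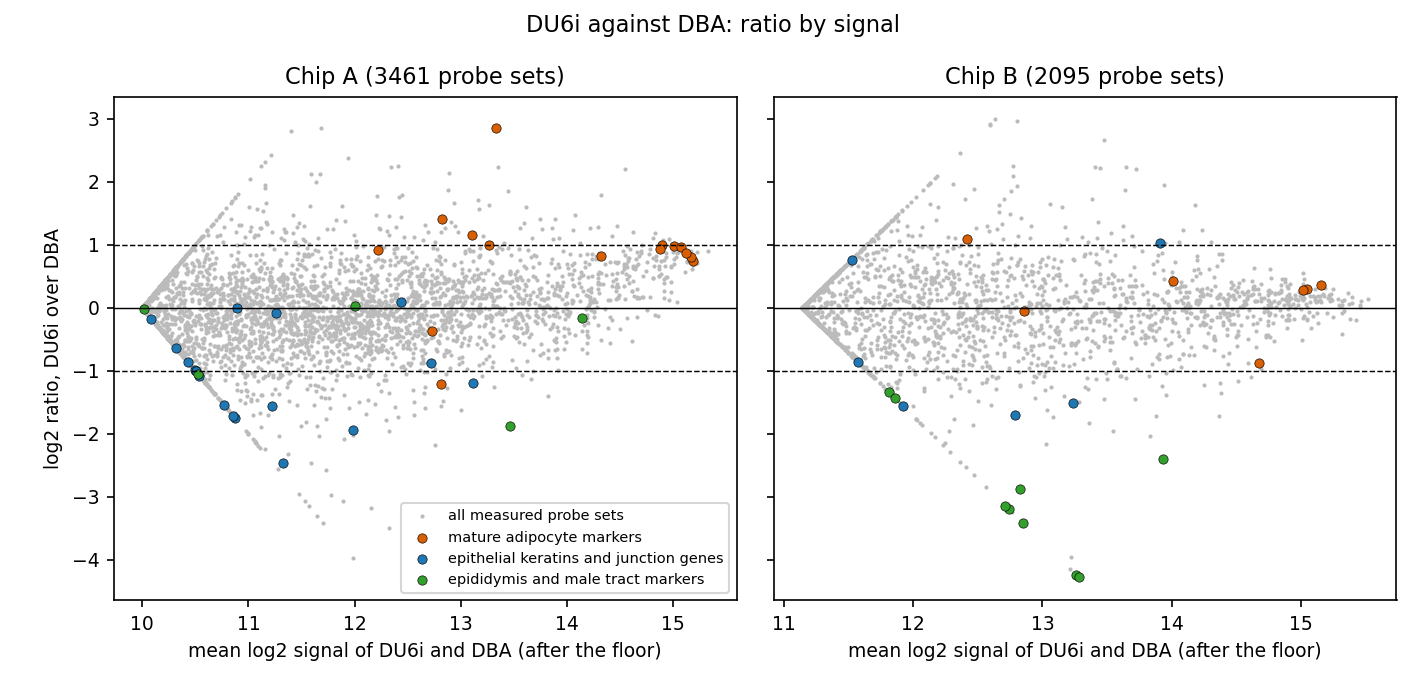
Log2 ratio of DU6i over DBA (vertical axis) against the mean log2 signal of both lines after the floor (horizontal axis), for 3461 measured probe sets of chip A (left) and 2095 of chip B (right). Grey points are probe sets, coloured points are genes of 3 lists, the dashed lines mark 2-fold, and the slanted edges are probe sets at the floor on 1 array. At the bright end of chip A the grey cloud lies above 0 together with most adipocyte markers, and on chip B it lies at 0.

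Both pools carried strong adipocyte markers, as the tissue label says. Adipoq, which encodes adiponectin, had signals of 48251 in DU6i, 28894 in DBA, 21044 in DU6 and 36670 in DUKs, and Fabp4, the fatty acid carrier of adipocytes, had 48639 in DU6i, 27836 in DBA, 21433 in DU6 and 34237 in DUKs. All 22 measured genes of the list of mature adipocyte markers were above the floor in DU6i and in DBA. Cfd, Ucp1, Adrb3 and Lepr had no measured probe set, so that adipsin, the beige fat marker, the main adrenergic receptor of fat and the leptin receptor cannot be described here.

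Leptin showed the widest difference toward DU6i among named genes above the floor on both arrays. Lep had signals of 27777 in DU6i, 3837 in DBA, 12446 in DU6 and 8697 in DUKs. DU6i was thus the highest and DBA the lowest of the 4 lines, and Lep was 7.24-fold higher in DU6i than in DBA (log2 ratio 2.86). After quantile normalisation the log2 ratio was 2.585, nearly as large as before. Lep has a single measured probe set.

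The promoter of Lep is shown because this gene leads the side of DU6i. The sequence is RefSeq's for GRCm38.p6, chr6:29059971-29060270, plus strand, from 250 bases before to 50 bases after the gene start, read 5′ to 3′. Capitals mark TTGCGCAA, a match to the C/EBP motif TTGCNNAA that begins at position -55 from the gene start, and a GC box, GGGCGG, that begins at -98. Both strands were searched. Of 32817 RefSeq mouse promoters of this length, 10.8% hold the C/EBP motif and 35.6% the GC box, so that such matches are common, and a match describes the letters and not a bound factor.
Lep: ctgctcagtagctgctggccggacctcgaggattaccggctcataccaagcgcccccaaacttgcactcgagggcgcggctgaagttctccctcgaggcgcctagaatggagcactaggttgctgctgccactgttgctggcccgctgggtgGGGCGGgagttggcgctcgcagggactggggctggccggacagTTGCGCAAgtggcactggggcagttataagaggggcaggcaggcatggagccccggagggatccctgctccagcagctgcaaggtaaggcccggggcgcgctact
Cebpa, which encodes C/EBPα, the factor that keeps adipocytes differentiated and is known to act on the leptin promoter, had signals of 7989 in DU6i and 3735 in DBA, a value 2.14-fold higher in DU6i (log2 ratio 1.10). DU6i was not the highest line there, since the signals were 5948 in DU6 and 9751 in DUKs.

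Other secreted products of fat lay on the same side, less far apart. Orm1, the acute phase protein orosomucoid, had signals of 11833 in DU6i, 4443 in DBA, 6848 in DU6 and 5043 in DUKs and was 2.66-fold higher in DU6i. Serpina3n, a serine protease inhibitor made by fat and liver, had 37878 in DU6i, 11023 in DBA, 16588 in DU6 and 17861 in DUKs and was 3.44-fold higher, with a log2 ratio of 1.78 that became 1.32 after quantile normalisation. In both genes DU6i was the highest and DBA the lowest of the 4 lines. Retn, which encodes resistin, had 42936 and 21591 in DU6i and DBA and a log2 ratio of 0.99, which became 0.39 after quantile normalisation. Adipoq had a log2 ratio of 0.74, and 0.07 after quantile normalisation, so that the leptin and adiponectin transcripts did not differ alike. Lcn2, an iron-binding lipocalin of fat, neutrophils and the epididymis, went the other way, with 6788 in DU6i and 36012 in DBA. Of the 18 measured adipokines and secreted factors, 3 were 2-fold higher and 1 was 2-fold lower, with a median log2 ratio of 0.54 against -0.08 over all genes, and of 0.12 by chip B alone. Of all genes 3.66% were 2-fold higher and 7.39% lower, the shares beside which each list's counts stand.

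Markers of mature adipocytes lay mostly toward DU6i, and part of this shift was shared by other bright genes of chip A. Of 33 listed markers 22 were measured. Of these, 18 lay above 0 and 4 below, 4 were 2-fold higher (Lep, Orm1, Npr3 and Cebpa) and 1 was 2-fold lower (Adig), with a median log2 ratio of 0.84. The 8 of their probe sets with a mean signal over 20000 on chip A had a median of 0.95, beside 0.63 for the 127 other probe sets as bright on that chip. After quantile normalisation the median of the list was 0.36, and by chip B alone it was 0.33. Fabp4 was 1.75-fold higher with a log2 ratio of 0.81, which became 0.14 after quantile normalisation. Pparg, the nuclear receptor that directs adipocyte differentiation and whose signals of 6564 and 3489 are well below the bright end, had log2 ratios of 0.91 and 0.97 in the same order.

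Npr3, the receptor that clears natriuretic peptides from fat, was higher in DU6i by all 4 of its probe sets. The brightest had signals of 13151 in DU6i, 5929 in DBA, 13868 in DU6 and 10012 in DUKs (2.22-fold higher), and a second one on chip A had 11858 and 2501 in DU6i and DBA (4.74-fold higher). On chip B the ratios were at least 3.87-fold and at least 2.72-fold, with DBA under the floor. The size of the difference thus varied with the probe set, and its direction did not. Mrap, the accessory protein of melanocortin receptors that is induced in adipocytes, had 10060 in DU6i, 2986 in DBA, 9974 in DU6 and 6648 in DUKs and was 3.37-fold higher in DU6i. DBA alone stood apart in this gene, by more than 2-fold from each of the other lines.

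Adig, or adipogenin, a small protein of the adipocyte, was the one marker past 2-fold on the other side. Its signals were 4730 in DU6i, 10986 in DBA, 8680 in DU6 and 288 in DUKs, so that it was 2.32-fold lower in DU6i than in DBA and under the floor in DUKs.

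**Figure D2:**
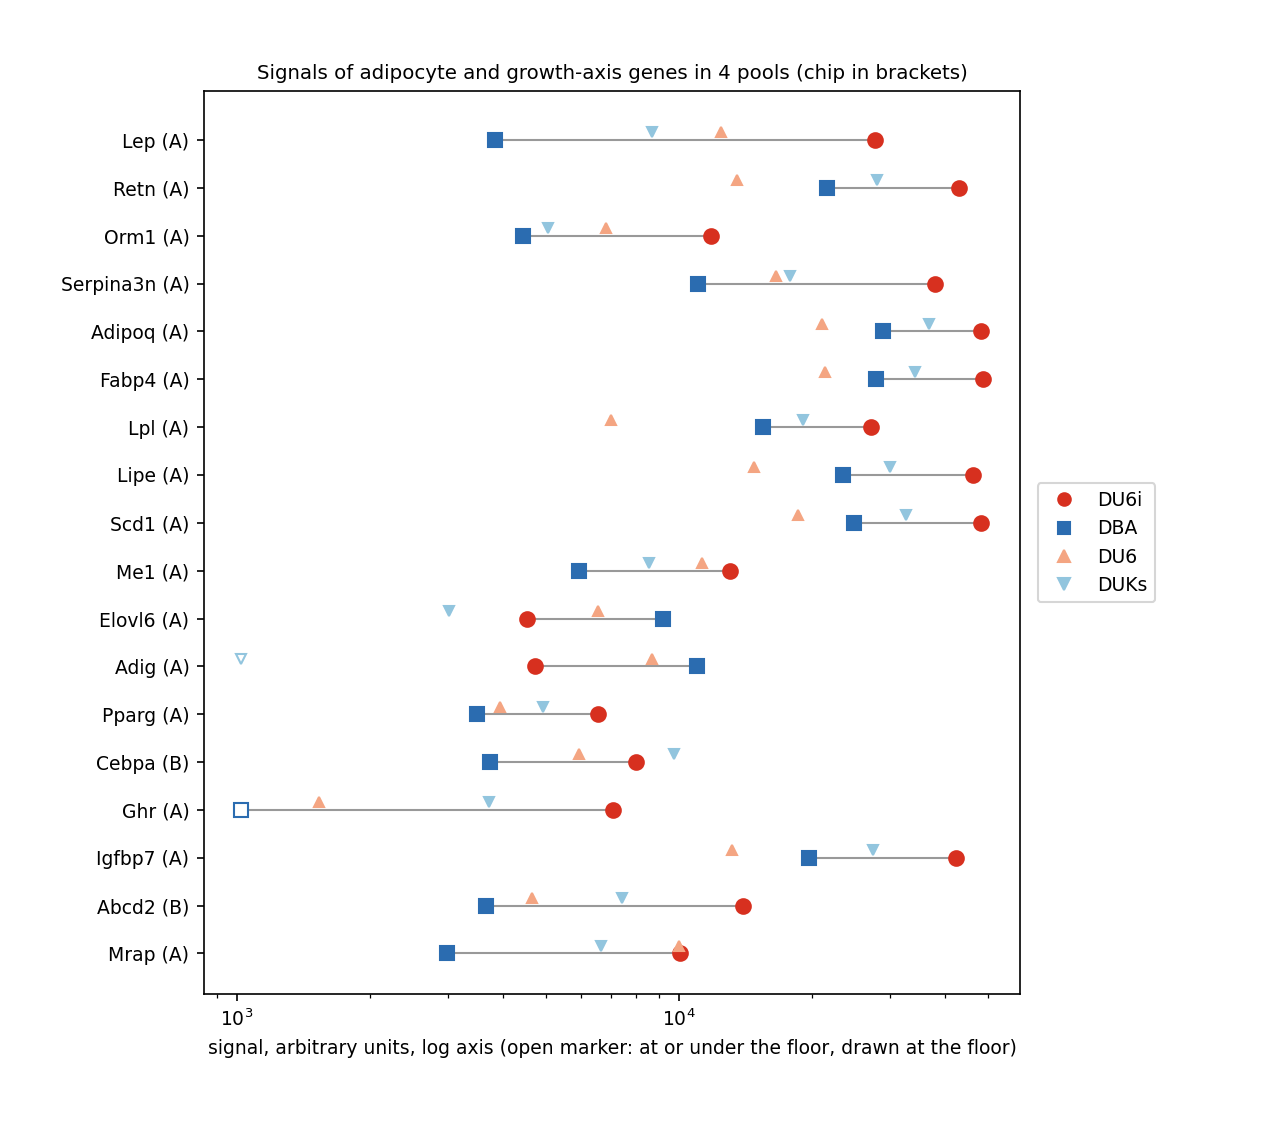
Signals of 18 adipocyte and growth-axis genes in the 4 pools (horizontal axis, arbitrary units, log scale), with the chip in brackets. Filled markers are signals above the floor, open markers lie at or under it, and the grey line joins DU6i and DBA. DU6i (circle) lies right of DBA (square) in 16 of the 18 genes, and Elovl6 and Adig are the exceptions.

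Genes of lipid handling lay toward DU6i as well, few of them by 2-fold. In lipid uptake, transport and lipolysis, 16 of 16 measured genes lay above 0, with a median log2 ratio of 0.40 that was 0.42 after quantile normalisation, and 1 was 2-fold higher. That gene was Abcd2, which carries very long-chain fatty acids into peroxisomes and is strongly expressed in white fat, with 13914 in DU6i, 3665 in DBA, 4642 in DU6 and 7444 in DUKs (3.80-fold higher). DU6i was the highest and DBA the lowest line in Abcd2. Lpl, the lipase that frees fatty acids from lipoproteins at the vessel wall, had 27218 and 15474 in DU6i and DBA (log2 ratio 0.82, and 0.47 after quantile normalisation), and Lipe, the hormone-sensitive lipase, had 46226 and 23530 (log2 ratio 0.97, and 0.31 after quantile normalisation). Cd36, a fatty acid translocase read on chip B, had 41487 and 32278 and a log2 ratio of 0.36, about 1 technical SD, while by chip A alone its log2 ratio was 1.14. Mgll and Plin2, which act on and coat the lipid droplet, lay at log2 ratios of 0.90 and 0.77.

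In fatty acid and triglyceride synthesis the members did not go one way. Of 16 measured, 1 was 2-fold higher, 2 were 2-fold lower, and the median log2 ratio was 0.23. Me1, the malic enzyme that supplies NADPH, had 13028 in DU6i, 5942 in DBA, 11266 in DU6 and 8558 in DUKs and was 2.19-fold higher in DU6i. Elovl6, which lengthens palmitate to stearate, had 4529 in DU6i, 9175 in DBA, 6566 in DU6 and 3023 in DUKs and was 2.03-fold lower, but just under 2-fold after quantile normalisation (log2 ratio -0.97). Gpd2, the mitochondrial glycerol phosphate dehydrogenase, had 1098 in DU6i, 2221 in DBA, 1086 in DU6 and 3193 in DUKs, the highest line. It was 2.02-fold lower in DU6i than in DBA, also under 2-fold after quantile normalisation (-0.81). The enzymes that add the last acyl chain of triglyceride also parted. Dgat1 had signals of 13947 in DU6i and 6997 in DBA, just under 2-fold apart. Dgat2 had 19303 in DU6i and 35559 in DBA, a log2 ratio of -0.88 on the other side. Fasn, the fatty acid synthase, had 40390 and 37212 and lay at 0.12, inside 1 technical SD. Scd1, the desaturase, lay at 0.96, and at 0.31 after quantile normalisation. Slc2a4, the insulin-responsive glucose carrier, lay at -0.05 with 7265 and 7542.

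Lpgat1, an acyltransferase of lysophospholipids that is no member of that list, was higher in DU6i by all 3 of its probe sets. They had log2 ratios of 1.85, 1.34 and 2.38, and the brightest had signals of 21171 in DU6i, 5877 in DBA, 15892 in DU6 and 10485 in DUKs. Degs1, which introduces the double bond of ceramide, had 29015 and 14072 in DU6i and DBA by one probe set of chip B (2.06-fold higher) and 15880 and 5230 by the other (3.04-fold higher). The direction of both genes of lipid modification was thus the same by a second probe set, but one read on the same arrays, which is not an independent repeat.

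Fatty acid oxidation and the citric acid cycle had medians near the size of 1 technical SD. That SD is the error of 1 ratio and not of a median. Of 25 measured genes of oxidation and peroxisomes, 17 lay above 0, and Abcd2 alone was 2-fold higher, with a median log2 ratio of 0.33. Of 14 genes of the citric acid cycle, 12 lay above 0 and none was past 2-fold, with a median of 0.29 (0.21 after quantile normalisation). Cs, the citrate synthase, had 10556 and 6351 in DU6i and DBA (log2 ratio 0.73), while Aco1, the cytosolic aconitase, had 12418 and 23841 (log2 ratio -0.94). None of the 43 measured subunits of the respiratory chain and ATP synthase was past 2-fold, and their median of 0.11 became -0.02 after quantile normalisation.

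In the growth hormone axis the receptor stood out and the factors downstream of it did not. Ghr, the growth hormone receptor, had signals of 7106 in DU6i, 926 in DBA, 1534 in DU6 and 3710 in DUKs. DBA was under the floor, and Ghr was at least 6.95-fold higher in DU6i, the widest bound toward DU6i among named genes. Stat5a, which carries the signal of this receptor, had 4562 and 4577 in DU6i and DBA (log2 ratio -0.01), and Igf1, a target gene of growth hormone, had 4932 and 3669 (log2 ratio 0.43). Socs2, a feedback inhibitor of the receptor, was under the floor in DU6i with 966 and 1478. Igfbp7, a secreted protein that binds IGFs weakly and is rich in vessels, had 42185 in DU6i, 19633 in DBA, 13168 in DU6 and 27471 in DUKs and was 2.15-fold higher in DU6i, with a log2 ratio of 0.54 after quantile normalisation. Of 16 measured genes of the axis, Ghr and Igfbp7 were 2-fold higher and none was lower, with a median of 0.03.

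Insulin signalling and glucose use held few differences. Of 14 measured insulin signalling genes, 1 was 2-fold lower, Ptprf, a receptor tyrosine phosphatase, with 2783 in DU6i and 5750 in DBA (2.07-fold lower, a log2 ratio of -1.05 that became -0.91 after quantile normalisation). Insr and Irs1 had no measured probe set. Among 24 genes of glucose transport and glycolysis, 2 were 2-fold higher and 3 lower. Slc16a1, a carrier of lactate and pyruvate, had 6587 in DU6i, 1607 in DBA, 1751 in DU6 and 4486 in DUKs (at least 2.92-fold higher). Slc2a3, the glucose carrier of neurons and sperm, had 857 in DU6i, 3135 in DBA, 1000 in DU6 and 6529 in DUKs (at least 3.07-fold lower). DUKs was the highest line in Slc2a3. The list median of 0.07 became -0.01 after quantile normalisation.

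Among the remaining genes with the highest ratios, most differed in which other lines shared their level. Cryab, a small heat shock protein, had 12311 in DU6i, 1552 in DBA, 10715 in DU6 and 7161 in DUKs (at least 5.45-fold higher), and its probe set on chip A was 7.19-fold higher with 8815 and 1226 in DU6i and DBA. Psmb6, a catalytic subunit of the constitutive proteasome, had 15926 in DU6i, 3625 in DBA, 14220 in DU6 and 13801 in DUKs (4.39-fold higher). In Psmb6 the level of DBA was the exception and the other 3 lines were alike, and no other of the 41 measured genes of the proteasome and ubiquitin list was past 2-fold (median -0.15). Rpl41, a small ribosomal protein, had 51314 in DU6i, 11142 in DBA, 5063 in DU6 and 15018 in DUKs (4.61-fold higher, a log2 ratio of 2.20 that became 1.69 after quantile normalisation). There DU6i was the exception, and of the 36 measured ribosomal proteins Rps26 was the only other one past 2-fold, 2.87-fold lower with 2753 and 7910 in DU6i and DBA, while the list median was -0.03.

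Carriers and membrane proteins were found among the highest ratios too. Slc6a13, a carrier of GABA and taurine, had 6785 in DU6i, 1568 in DBA, 3987 in DU6 and 1260 in DUKs (4.33-fold higher), and Slc6a12, its relative for betaine and GABA, had 6154 in DU6i, 1972 in DBA, 1914 in DU6 and 2033 in DUKs (at least 2.73-fold higher) and was above the floor in DU6i alone. These carriers of small amino acid derivatives were highest in DU6i. Sptbn1, a spectrin under the plasma membrane, had 11252 in DU6i, 2392 in DBA, 2418 in DU6 and 5712 in DUKs (4.70-fold higher). Hfe, which limits iron uptake, had 8227 in DU6i, 1922 in DBA, 8183 in DU6 and 1232 in DUKs (at least 3.64-fold higher), a level shared with DU6, while DBA and DUKs were under the floor. Some genes of this kind had a probe set on each chip. Cd151, a tetraspanin, was 2.77-fold higher by chip A with 28873 and 10408 and 6.32-fold higher by chip B with 28709 and 4542 in DU6i and DBA. Sod3, the superoxide dismutase of the extracellular space, was 2.44-fold higher by chip A with 31305 and 12816 (under 2-fold after quantile normalisation, at a log2 ratio of 0.90) and 4.28-fold higher by chip B with 14445 and 3376. These pairs of probe sets gave the same direction on both chips. Both chips were hybridised with the same pools, so that this is not an independent repeat.

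Epas1, the hypoxia-inducible factor HIF-2α, was higher in DU6i by both of its probe sets, 3.03-fold higher by the brighter with 3569 and 1179 in DU6i and DBA. Msn, or moesin, which links actin to the membrane, was 2.04-fold higher by chip A with 14311 and 7005 and 3.32-fold higher by chip B with 9836 and 2963. Msn thus went the same way on both chips, which were hybridised with the same pools, although on chip A its log2 ratio was 0.93 after quantile normalisation. Both probe sets of Epas1 are on chip A and were read on the same arrays. Cavin3, of the caveolae that crowd the adipocyte surface, had 26166 and 11103 in DU6i and DBA (2.36-fold higher, and under 2-fold after quantile normalisation, at a log2 ratio of 0.90). Of 17 measured genes of caveolae and the membrane cytoskeleton 4 were 2-fold higher and 1, Ezr, was lower, with a median log2 ratio of 0.50. The 4 were Cavin3, Msn, Sptbn1 and Ank1, of which Cavin3 and Msn were under 2-fold after quantile normalisation.

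Markers of macrophages and myeloid cells lay toward DU6i. Of 52 listed, 30 were measured and 23 of these were above the floor in both lines. Among the 30, 25 lay above 0, 7 were 2-fold higher and 0 were 2-fold lower (3.66% and 7.39% of all genes), and the median log2 ratio was 0.62, with 0.64 after quantile normalisation and 0.57 over the 23 genes. Adgre1, which encodes the F4/80 antigen, had 6025 in DU6i, 2736 in DBA, 4322 in DU6 and 3161 in DUKs (2.20-fold higher). Cd68, of the macrophage lysosome, had 3140 in DU6i, 1436 in DBA, 3861 in DU6 and 2442 in DUKs (2.19-fold higher), and Mrc1, the mannose receptor of resident macrophages, had 16110 in DU6i, 7496 in DBA, 12807 in DU6 and 9567 in DUKs (2.15-fold higher). In these 3 genes DBA was the lowest line, and DU6i was the highest in Adgre1 and Mrc1. Ccl9, a chemokine of myeloid cells, had 7715 and 3327 in DU6i and DBA (2.32-fold higher), and S100a8, a calcium-binding protein of neutrophils and monocytes, was under the floor in DBA on both chips (at least 4.73-fold higher by chip A, at least 2.38-fold higher by chip B). Csf1r lay at a log2 ratio of 0.64 and Cd14 at -0.22, so that the list did not move as one. The summed signal of its measured members was 265402 in DU6i and 180767 in DBA.

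Of the other immune cells little was measured. The list of lymphocyte markers had 5 measured genes and 0 past 2-fold. Cd3e, of the T cell receptor, had 1925 and -905 in DU6i and DBA, and Ms4a1, the CD20 antigen of B cells, had 1415 and 2680, neither past 2-fold.

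Markers of other tissues that a pad could hold were few. Of 10 measured skeletal muscle markers 2 were 2-fold higher in DU6i, Cryab and Myl1, a myosin light chain with 2952 in DU6i and 1354 in DBA (2.18-fold higher), and the list median was 0.39. Of 13 smooth muscle markers Csrp1 was 2-fold higher (2.22-fold higher, with 7665 in DU6i and 3445 in DBA), and the median was 0.44. Of 9 neuronal and Schwann cell markers 3 were 2-fold lower, Egr2, Ncam1 and Erbb3, a receptor of neuregulins that Schwann cells and epithelia share, with 1260 in DU6i and 3439 in DBA (2.73-fold lower).

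Vessels and matrix lay slightly toward DU6i. Of 16 measured endothelial markers, 14 lay above 0 and 1 was 2-fold higher (median 0.40, and 0.49 after quantile normalisation). Pecam1, the CD31 antigen, had 2388 in DU6i, 938 in DBA, 894 in DU6 and 1784 in DUKs (at least 2.33-fold higher), and Cdh5, the cadherin of endothelium, had 10196 and 6673 in DU6i and DBA (log2 ratio 0.61). Of 46 measured matrix genes, 37 lay above 0, 6 were 2-fold higher and 1 was lower (median 0.36, and 0.30 after quantile normalisation). Nid2, of the basement membrane, had 7932 in DU6i, 2537 in DBA, 5378 in DU6 and 2037 in DUKs (3.13-fold higher), Postn, or periostin, had 26723 and 11365 in DU6i and DBA (2.35-fold higher), and Col5a1, a minor fibril collagen, was 2.31-fold higher by one probe set and 2.40-fold higher by the other. The main fibrillar collagens were within 1 technical SD of 0 by their brightest probe sets, which are on chip B. Col1a1 had 33648 and 30943 (log2 ratio 0.12) and Col3a1 had 45839 and 38904 (log2 ratio 0.24). On chip A, other probe sets had log2 ratios of 0.85 and -0.66 for Col1a1 and 0.92 for Col3a1, so that their levels depended on the probe set.

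Fmod, or fibromodulin, which binds collagen fibrils, was the matrix gene on the other side. Its signals on chip A were 3736 in DU6i, 11228 in DBA, 10972 in DU6 and 3464 in DUKs, 3.01-fold lower in DU6i than in DBA, and on chip B it was at least 3.03-fold lower. DBA and DU6 were alike and high, DU6i and DUKs alike and low.

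Stromal precursor genes were split. Of 30 measured, 4 were 2-fold higher and 2 lower, with a median of 0.10. Sfrp2, a secreted Wnt modulator, had 3420 in DU6i and 1427 in DBA (2.40-fold higher), and its relative Sfrp1 had 2275 in DU6i and 6855 in DBA (3.01-fold lower). Pdgfra, the receptor that marks fat cell precursors, had 1592 in DU6i, 5568 in DBA, 2660 in DU6 and 2210 in DUKs (3.50-fold lower), while Pdgfrb, the receptor of pericytes, had 5600 and 2991 in DU6i and DBA (log2 ratio 0.91).

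Epithelial genes lay toward DBA. Of 47 listed genes of epithelial keratins and cell junctions, 23 were measured. Among these, 20 lay below 0, 12 were 2-fold lower in DU6i and 1 was higher (7.39% and 3.66% of all genes), and the median log2 ratio was -1.01. Krt18, a keratin of simple epithelia, had 2066 in DU6i, 7959 in DBA, 4736 in DU6 and 3078 in DUKs (3.85-fold lower). Its partner Krt8 had 5714 in DU6i, 16360 in DBA, 12163 in DU6 and 6152 in DUKs on chip B (2.86-fold lower) and was 2.46-fold lower on chip A. Cdh1, or E-cadherin, the adhesion protein between epithelial cells, had 3919 in DU6i, 12772 in DBA, 6018 in DU6 and 4721 in DUKs (3.26-fold lower). In all 3 genes DBA was the highest line and DU6i the lowest. Dsp, or desmoplakin, of the desmosome, was 5.51-fold lower with 1094 and 6033 in DU6i and DBA and 4.12-fold lower by its second probe set. Both probe sets of Dsp thus lay past 2-fold on the side of DBA. Epcam, a surface protein of epithelial cells, and Elf3, an epithelial transcription factor, were under the floor in DU6i, with 3425 and 2985 in DBA (at least 3.35-fold lower and at least 2.92-fold lower). Above the floor were 12 of the 23 genes in DU6i and 22 in DBA, and their summed signal was 67420 and 121802. A gene measured through DBA alone could only lie on that side, and the 11 genes above the floor in both lines had a median of -1.19. Tjp1, of the tight junction of many cell types, lay at a log2 ratio of -0.08. Aqp1, the water channel also found in vessels, was the member higher in DU6i, with 21982 in DU6i and 10796 in DBA (2.04-fold higher).

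Mesothelial markers overlapped with that list and did not all follow it. Of the 10 measured, 5 are also among the epithelial genes, and the 5 members past 2-fold, all lower, were Krt7, Krt8, Krt18, Cdh1 and Ezr. Msln, or mesothelin, had 1536 and 721 in DU6i and DBA and was under the floor in DBA, and Wt1, a transcription factor of mesothelium, had 3928 and 6683 (log2 ratio -0.77). The cell type from which the keratin transcripts came was not tested.

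Genes of the epididymis and male tract had the lowest median of the lists over measured genes. Of 46 listed, 14 were measured. Among these, 13 lay below 0 and 11 were 2-fold lower in DU6i, with a median log2 ratio of -2.14. All 14 were above the floor in DBA and 5 in DU6i, with a median of -1.87 over these 5, and the summed signal was 37033 in DU6i and 266915 in DBA. A gene measured through DBA alone could only lie on that side. With every probe set entered, also those at or under the floor on both arrays, the median was -0.17. It was then nearer to 0 than that of the epithelial list. By chip A alone the median was -0.17, and by chip B alone, which holds the Svs genes and Gpx5, it was -3.14. Svs5, a seminal vesicle secretion, had -433 in DU6i, 43837 in DBA, -575 in DU6 and -536 in DUKs. Svs4, another one, had 253 in DU6i, 42807 in DBA, -36.1 in DU6 and 72.1 in DUKs, and Svs2, the main protein of the copulatory plug, had -1003 in DU6i, 19923 in DBA, -555 in DU6 and -1430 in DUKs. DBA was thus the only line with a signal of these secretions above the floor, and Svs5 was at least 19.4-fold lower, Svs4 at least 19-fold lower and Svs2 at least 8.82-fold lower in DU6i. Gpx5, the glutathione peroxidase of the epididymis, followed another order, with -2544 in DU6i, 20753 in DBA, 49126 in DU6 and 52044 in DUKs (at least 9.19-fold lower). It was high in DBA, DU6 and DUKs and under the floor in DU6i alone. Adam7, an epididymal surface protein, had 5914 in DU6i, 21665 in DBA, 19574 in DU6 and 23896 in DUKs (3.66-fold lower), and Adam28, of the same family, had 1846 in DU6i, 24037 in DBA, 8176 in DU6 and 5106 in DUKs (at least 10.6-fold lower). Lcn2, which the epididymis makes too, had 6788 in DU6i, 36012 in DBA, 48487 in DU6 and 29578 in DUKs (5.31-fold lower), and its second probe set had 2432 and 37640 in DU6i and DBA (15.5-fold lower). DU6i was the lowest of the 4 lines in Gpx5, Adam7, Adam28 and Lcn2.

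The promoters of Svs4 and Svs5 are shown because these genes went together, above the floor in the DBA pool and in no other, and those of Krt8 and Krt18 because their proteins form 1 filament. Sequences are RefSeq's for GRCm38.p6 over the same window as for Lep, at chr2:164278258-164278557, minus strand, for Svs4, chr2:164332515-164332814, plus strand, for Svs5, chr15:102004293-102004592, minus strand, for Krt8, and chr15:102027966-102028265, plus strand, for Krt18. Capitals mark, on either strand, the TATA box TATAAA (or TTTATA when read from the other strand), the E-box CACCTG and TGTTCT, a hexamer of the elements that androgen and glucocorticoid receptors bind. Of all 32817 promoters 13.6% hold the TATA box, 20.2% the E-box and 19% TGTTCT. With positions counted from the gene start, a TATAAA begins at -28 in both Svs genes. Svs4 also has 3 more TATA matches and an E-box at -41, and Svs5 a TGTTCT at -199. In Krt8 a TATAAA and a TTTATA overlap at the start and are printed as 1 run of capitals.
Svs4: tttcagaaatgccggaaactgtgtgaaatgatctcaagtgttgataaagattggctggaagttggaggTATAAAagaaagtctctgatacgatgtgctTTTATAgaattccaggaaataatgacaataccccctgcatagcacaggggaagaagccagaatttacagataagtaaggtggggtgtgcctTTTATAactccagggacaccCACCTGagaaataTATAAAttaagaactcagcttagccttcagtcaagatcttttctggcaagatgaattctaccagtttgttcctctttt
Svs5: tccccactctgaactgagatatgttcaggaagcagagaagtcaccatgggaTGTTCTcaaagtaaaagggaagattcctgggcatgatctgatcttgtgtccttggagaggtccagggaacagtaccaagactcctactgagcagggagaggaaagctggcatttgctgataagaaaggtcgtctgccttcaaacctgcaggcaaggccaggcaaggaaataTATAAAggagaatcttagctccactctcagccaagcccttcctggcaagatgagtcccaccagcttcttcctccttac
Krt8: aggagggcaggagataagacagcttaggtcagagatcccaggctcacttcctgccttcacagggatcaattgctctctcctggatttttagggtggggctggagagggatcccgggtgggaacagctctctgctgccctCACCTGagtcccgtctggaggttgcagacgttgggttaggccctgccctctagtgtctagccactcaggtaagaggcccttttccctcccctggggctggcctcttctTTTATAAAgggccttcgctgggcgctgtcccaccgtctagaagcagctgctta
Krt18: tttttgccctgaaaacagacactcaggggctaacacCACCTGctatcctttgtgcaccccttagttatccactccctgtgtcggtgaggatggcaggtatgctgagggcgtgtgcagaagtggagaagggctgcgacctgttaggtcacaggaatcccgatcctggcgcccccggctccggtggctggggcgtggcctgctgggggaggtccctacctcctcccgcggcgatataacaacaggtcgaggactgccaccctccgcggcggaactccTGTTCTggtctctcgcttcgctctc
Krt8 and Krt18 each hold 1 E-box, at -111 and at -214, and Krt18 a TGTTCT at 25. These are matches of letters, and nothing was measured at these promoters.

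Germ cell transcripts lay toward DBA as well. Of 53 listed markers of testis and germ cells, 20 were measured. Among these, 19 lay below 0 and 7 were 2-fold lower in DU6i (median -0.73, and -1.003 over the 11 above the floor in both lines). Above the floor were 12 of the 20 in DU6i and 19 in DBA, and a gene measured through DBA alone could only lie on that side. With every probe set entered, the median lay nearer to 0. Odf1, of the outer dense fibre of the sperm tail, had 1866 in DU6i, 14282 in DBA, 9670 in DU6 and 44685 in DUKs (at least 6.32-fold lower), and Smcp, of the sperm mitochondrial capsule, had 4207 in DU6i, 12331 in DBA, 8597 in DU6 and 25694 in DUKs (2.93-fold lower). Ldhc, the lactate dehydrogenase of sperm, had 2604 in DU6i, 10134 in DBA, 3450 in DU6 and 23076 in DUKs (3.89-fold lower). In these 3 genes DUKs was the highest line and DU6i the lowest, so that DBA was not the extreme here as it was for the Svs genes. The summed signal of the list was 68091 in DU6i and 147049 in DBA. How much of the RNA of each pool came from epididymis, testis or glands, and the part of this in other differences of the pair, was not tested.

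**Figure D3:**
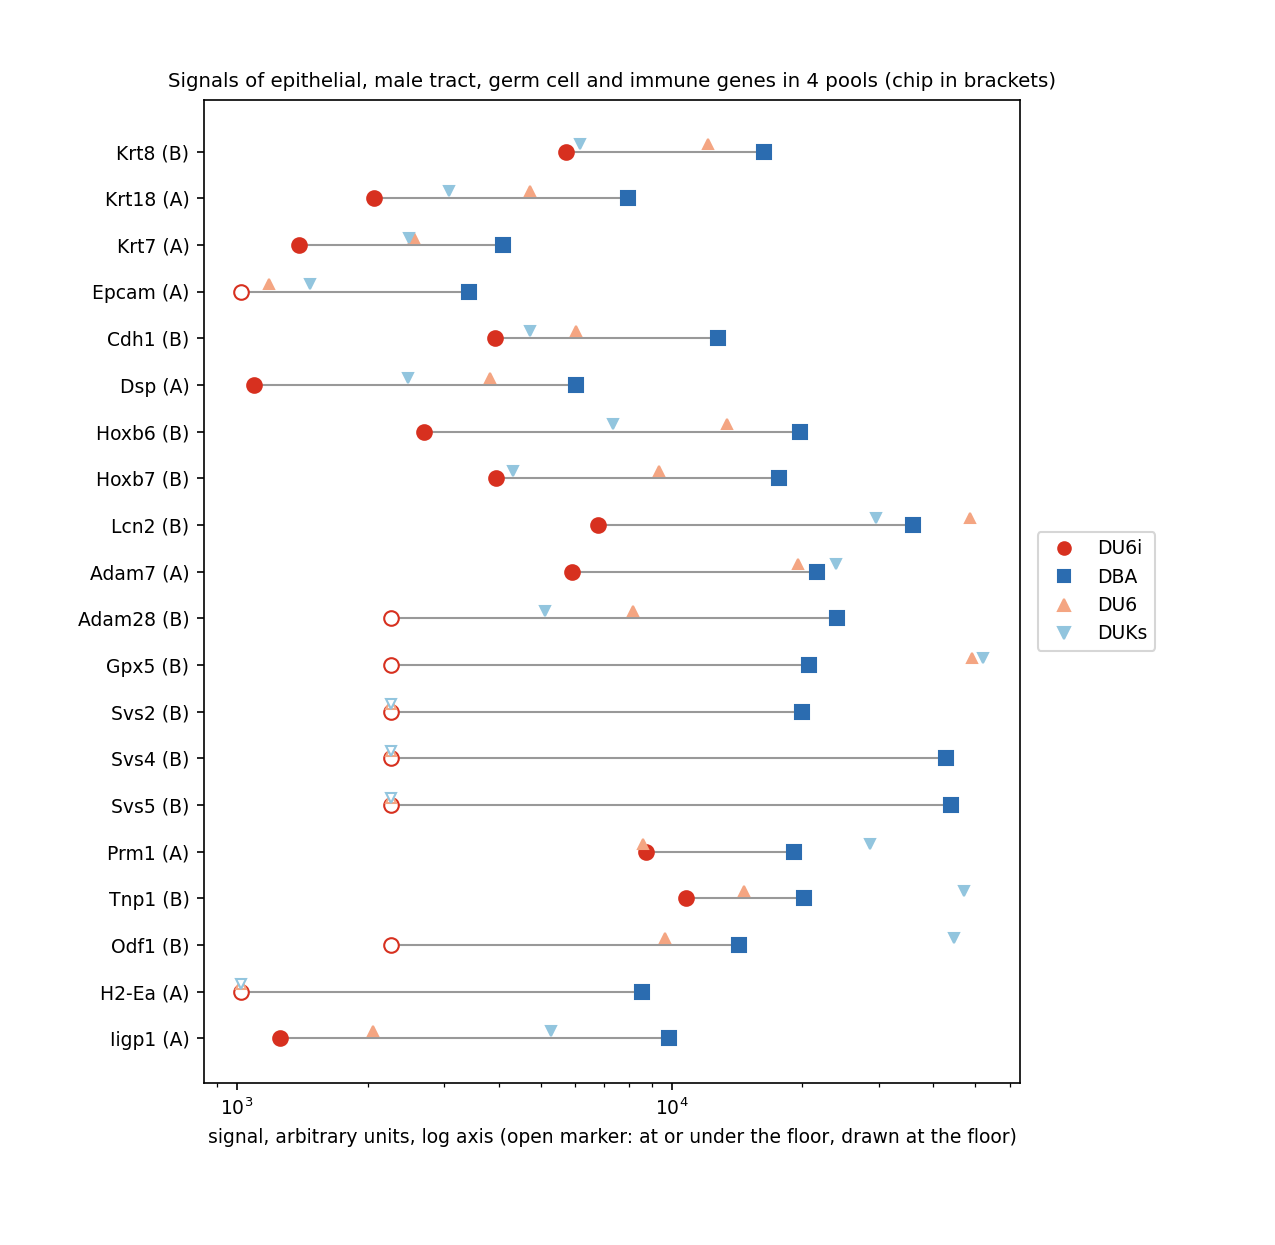
Signals of 20 epithelial, male tract, germ cell and immune genes in the 4 pools (horizontal axis, arbitrary units, log scale), with the chip in brackets. Filled markers are above the floor, open markers at or under it, and the grey line joins DU6i and DBA. DBA (square) lies right of DU6i (circle) in all 20 genes, DUKs is the highest line in the germ cell genes Prm1, Tnp1 and Odf1, and only DBA has a filled marker in the Svs genes and H2-Ea.

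Developmental genes were among those lower in DU6i. Hoxb6, a homeobox gene of trunk patterning, had 2688 in DU6i, 19700 in DBA, 13384 in DU6 and 7352 in DUKs (7.33-fold lower), and its neighbour in the same cluster, Hoxb7, had 3939 in DU6i, 17711 in DBA, 9344 in DU6 and 4312 in DUKs (4.50-fold lower). Both had DBA as the highest and DU6i as the lowest line. Hoxb5, of the same cluster, had 1803 and 2186 in DU6i and DBA (log2 ratio -0.28), and Hoxc8 had 8170 and 5535 (log2 ratio 0.56). Pax8, a transcription factor of the epithelia of kidney, thyroid and genital tract, had 2014 in DU6i and 6110 in DBA (at least 2.71-fold lower). Of 14 measured homeobox and patterning genes these 3 were 2-fold lower and 0 were higher (median -0.35). Hoxb6 and Pax8 are also members of the male tract list.

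The genes with the widest ratios toward DBA that were above the floor in both lines had other roles. Slc38a5, an amino acid carrier for glutamine and serine, had 1737 in DU6i, 22076 in DBA, 16577 in DU6 and 21855 in DUKs (12.7-fold lower). DU6i was the exception there, with the other 3 lines alike. C4bp, a soluble inhibitor of complement, had 1524 in DU6i, 17241 in DBA, 16244 in DU6 and 7222 in DUKs (11.3-fold lower). Cad, the first enzyme of pyrimidine synthesis, had 1517 in DU6i, 13743 in DBA, 10910 in DU6 and 6304 in DUKs (9.06-fold lower). Amot, or angiomotin, of cell junctions, had 1311 in DU6i, 11038 in DBA, 3685 in DU6 and 1616 in DUKs (8.42-fold lower, and 5.93-fold lower by its second probe set). In C4bp, Cad and Amot DU6i was the lowest line and DBA the highest. Mmp7, a metalloproteinase of glandular epithelia, had 1314 in DU6i, 7232 in DBA, 3479 in DU6 and 3562 in DUKs (5.50-fold lower), and Myo5b, a motor of vesicle recycling in epithelia, had 1190 in DU6i, 5932 in DBA, 2252 in DU6 and 2156 in DUKs (4.99-fold lower). Mmp7 was the only one of 16 measured metalloproteinases and inhibitors that was 2-fold lower, and Timp2 (at least 2.31-fold higher, with 5226 and 1865 in DU6i and DBA) and Adam12 were higher.

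Solute carriers were found on both sides. Of 33 measured, 4 were 2-fold higher and 6 lower in DU6i, with a median of 0.06, so that neither side prevailed. Slc4a3, an anion exchanger, had 2781 in DU6i, 972 in DBA, 1391 in DU6 and 2442 in DUKs (at least 2.72-fold higher). Slc9a3r1, a scaffold under the brush border of epithelia named after the exchanger it regulates, had 665 in DU6i, 3973 in DBA, 1321 in DU6 and 1738 in DUKs (at least 3.88-fold lower). Slc27a2, a fatty acid carrier and activating enzyme of liver and kidney, had 1233 in DU6i, 3094 in DBA, 952 in DU6 and 1976 in DUKs (2.51-fold lower). Its second probe set had a log2 ratio of -0.39. DBA was the highest line in Slc9a3r1 and, by the brighter probe set, in Slc27a2.

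Enzymes of glutathione and of defence against oxidants parted as well. Of 33 measured, 3 were 2-fold higher and 3 lower, with a median of -0.11. Gstz1, which breaks down tyrosine metabolites, had 29546 in DU6i, 12271 in DBA, 19809 in DU6 and 20612 in DUKs (2.41-fold higher), and its log2 ratio of 1.27 became 0.92 after quantile normalisation. Gsto1, a glutathione transferase of the omega class, had 5480 in DU6i, 2305 in DBA, 7665 in DU6 and 3636 in DUKs (2.38-fold higher). Mgst3, a microsomal one, had 2449 in DU6i, 5407 in DBA, 1961 in DU6 and 3564 in DUKs (2.21-fold lower). Together with Sod3 and Gpx5, which are described above, no common direction was seen.

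Egr2, a zinc finger factor of immediate early type, had 767 in DU6i, 16202 in DBA, 6124 in DU6 and 2661 in DUKs (at least 7.17-fold lower), whereas Egr1 had 2140 and 3525 in DU6i and DBA (log2 ratio -0.72). Rhob, a small GTPase induced by stress, went toward DU6i with 7662 in DU6i, 1215 in DBA, 1496 in DU6 and 4220 in DUKs (at least 3.39-fold higher). Of 23 measured immediate early genes 2 were 2-fold higher and 2 lower, and the median was 0.03.

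Interferon-induced genes lay mostly toward DBA. Of 18 measured, 14 lay below 0, 4 were 2-fold lower in DU6i and 1 was higher (median -0.42). All 18 were above the floor in DBA and 14 in DU6i, and a gene measured through DBA alone could only lie on that side. Over the genes above the floor in both lines the median was -0.33, a size inside 1 technical SD. That SD is the error of 1 ratio and not of a median. Iigp1, a GTPase that attacks vacuoles of intracellular parasites, had 1258 in DU6i, 9845 in DBA, 2056 in DU6 and 5268 in DUKs (7.82-fold lower), and Igtp, of the same family, was under the floor in DU6i with 687 and 2439 (at least 2.38-fold lower). Irf1, a transcription factor of the interferon response, had 3984 in DU6i, 8247 in DBA, 5067 in DU6 and 5242 in DUKs (2.07-fold lower, with a log2 ratio of -0.999 after quantile normalisation), and Psmb9, a subunit of the immunoproteasome, had 2774 in DU6i, 9416 in DBA, 4019 in DU6 and 6122 in DUKs on chip B (3.39-fold lower) and was 2.46-fold lower on chip A. DBA was the highest of the 4 lines in these 4 genes. Ifi27 was the member on the other side, with 44633 in DU6i, 21161 in DBA, 3127 in DU6 and 33667 in DUKs (2.11-fold higher). It is a bright chip A gene, and its log2 ratio of 1.08 became 0.47 after quantile normalisation. Ifngr1, a chain of the interferon-γ receptor, had 7810 in DU6i, 2829 in DBA, 6114 in DU6 and 4156 in DUKs (2.76-fold higher).

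Class II genes of the major histocompatibility complex, which are polymorphic between strains, differed gene by gene and probe set by probe set. H2-Ea had 219 in DU6i, 8566 in DBA, 195 in DU6 and 406 in DUKs on chip A (at least 8.38-fold lower) and was at least 3.38-fold lower on chip B, with DBA the only line above the floor on either chip. H2-Eb1 had 1090 in DU6i, 12279 in DBA, 884 in DU6 and 8627 in DUKs (at least 5.44-fold lower), but a log2 ratio of -0.46 by another probe set. DBA and DUKs were high in the first of these and DU6i and DU6 under the floor. H2-Aa had 20881 and 17427 in DU6i and DBA by its brightest probe set (log2 ratio 0.26), and 22619 and 4833 by another (4.68-fold higher), so that no single direction can be given for it. Cd74, the invariant chain that goes with these proteins, had 45752 and 44365 (log2 ratio 0.04). Of 21 measured genes of antigen presentation, 1 (Hfe) was 2-fold higher and 4 (H2-Ea, H2-Eb1, Tap1 and Psmb9) were lower, with a median of 0.04.

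Liver-type secreted proteins were detected in the pair. Of 25 measured acute phase and liver-type genes, 2 were 2-fold higher (Orm1 and Serpina3n) and 4 lower, with a median of -0.25. All 25 were above the floor in DBA and 18 in DU6i, and a gene measured through DBA alone could only lie on that side. Over the 18 genes above the floor in both lines the median was 0.11. Hpx, or hemopexin, had 2717 in DU6i, 9299 in DBA, 884 in DU6 and 1707 in DUKs (3.42-fold lower), and Fgg, the γ chain of fibrinogen, had 3591 in DU6i, 10102 in DBA, 883 in DU6 and 1427 in DUKs (2.81-fold lower). Apcs, the serum amyloid P component, had 47.1 in DU6i, 7676 in DBA, 257 in DU6 and -61.4 in DUKs (at least 3.40-fold lower). DBA was the highest line in these 3 genes. Ahsg, or fetuin, had 16797 in DU6i, 13196 in DBA, 1880 in DU6 and 5042 in DUKs and was not 2-fold apart in the pair. In 12 of the 25 genes (48.0%) both DU6i and DBA were above both DU6 and DUKs, beside 12.3% of all 3466 genes. The source of these transcripts in the pads was not tested.

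Actb was lower in DU6i by both of its probe sets, with 991 in DU6i, 9049 in DBA, 16284 in DU6 and 3970 in DUKs by the brighter one (at least 8.85-fold lower). The control probe sets for β-actin did not show this, with 3′ signals of 34426 in DU6i and 20315 in DBA on chip A and 38355 and 34500 on chip B. The Actb probe sets therefore cannot be read as the level of β-actin. Pfn1, or profilin, which feeds actin filaments, was 3.31-fold lower by one probe set with 4758 and 15754 in DU6i and DBA and 2.46-fold lower by the other. Capg, which caps them, was 2.26-fold lower with 5186 and 11735 and 2.49-fold lower by its second probe set. Actr3, of the actin-branching complex, went the other way with 3459 in DU6i and 408 in DBA (at least 3.38-fold higher). Of 27 measured genes of the actin cytoskeleton and tubulins 1 was 2-fold higher and 5 were lower (median 0.02).

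Groups of genes that every cell uses lay close to the middle. Of 28 measured translation factors none was past 2-fold (median -0.07). Among 44 heat shock proteins and chaperones, Cryab was 2-fold higher and 3 were lower (median -0.19), one of which was Fkbp4, a co-chaperone of steroid receptors, with 9841 and 25716 in DU6i and DBA (2.61-fold lower). Of 39 genes of the cell cycle and DNA replication 0 were 2-fold higher and 3 lower (median -0.19): Cad, Plk1, a mitotic kinase with 765 and 4329 (at least 4.23-fold lower), and Mcm7, of the replication helicase, with 978 and 3438 (at least 3.36-fold lower). Mki67, the proliferation marker, had 3706 and 6232 (log2 ratio -0.75).

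**Figure D4:**
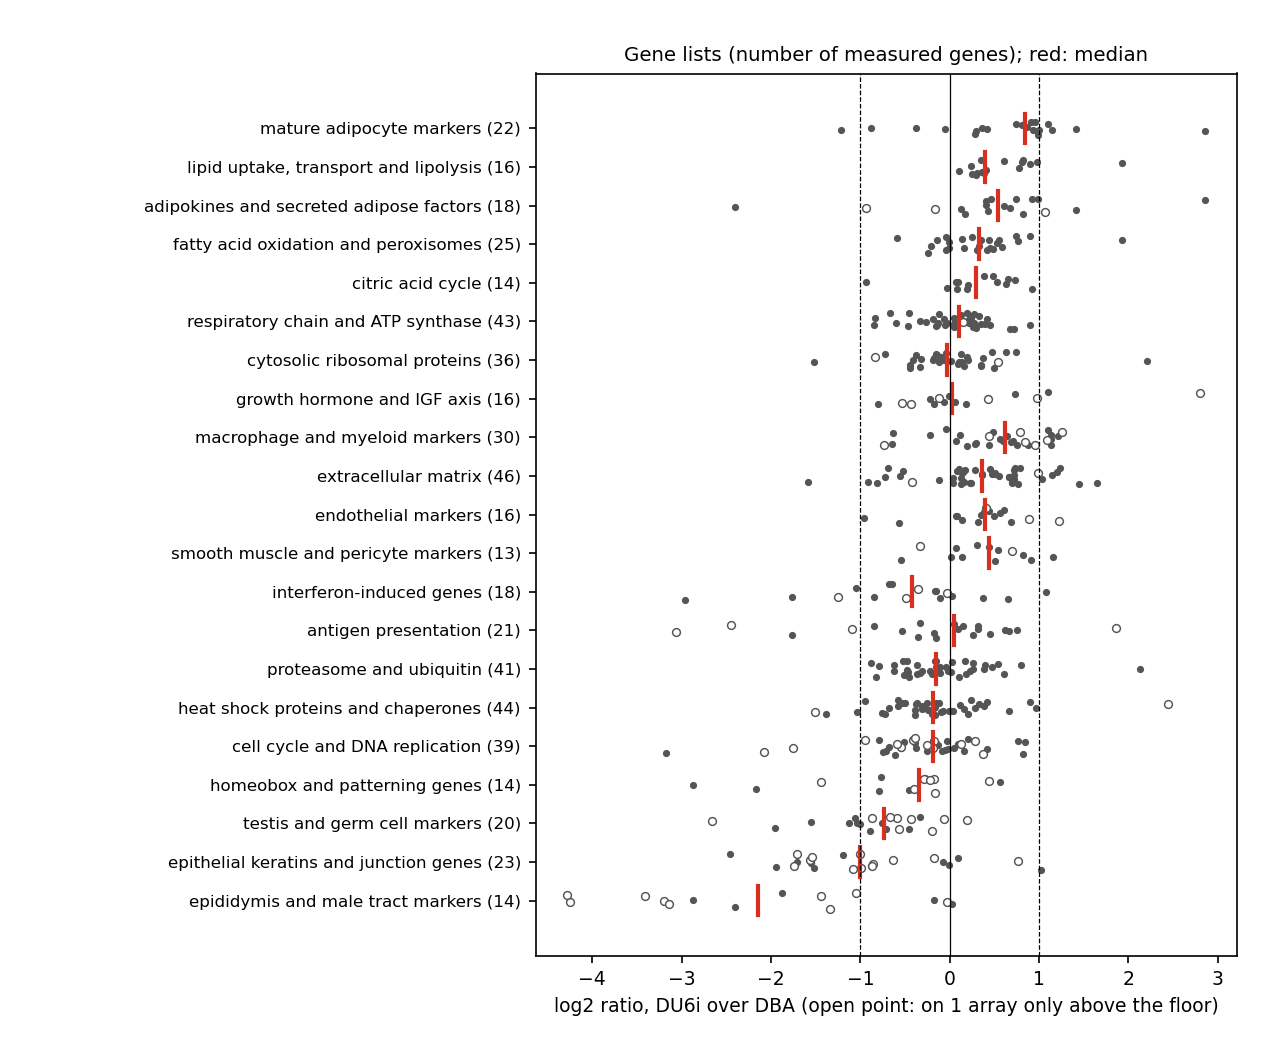
Log2 ratios of DU6i over DBA (horizontal axis) for the measured genes of 21 lists, with the number measured in brackets. Each point is a gene, open points are genes above the floor on 1 array only, the red bar is the median, and the dashed lines mark 2-fold. The medians run from 0.84 for mature adipocyte markers to -2.14 for genes of the epididymis and male tract.

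Probe sets without a gene name held some of the widest ratios. Of the 1530 measured, 95 were 2-fold higher and 79 lower in DU6i. The widest toward DBA, on chip B, had 942 in DU6i, 39823 in DBA, -234 in DU6 and -470 in DUKs, at least 17.6-fold lower in DU6i, the same order of lines as in the Svs genes. The widest toward DU6i that was above the floor in both lines, also on chip B, had 19945 in DU6i, 2566 in DBA, 2798 in DU6 and 13488 in DUKs, 7.77-fold higher. What these probe sets detect is not known here.

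Where a gene had several probe sets they mostly gave the same direction. Of 497 genes with 2 or more measured probe sets, 12 were 2-fold higher and 17 were 2-fold lower by at least 2 of them, and 1 was 2-fold in opposite directions. Of the 56 genes called at 2-fold that had a second probe set, the second lay on the same side in 50 and past 2-fold too in 29. Pdxdc1 was the opposed gene, with 6355 in DU6i, 1590 in DBA, 8772 in DU6 and 7775 in DUKs by one probe set (4.00-fold higher) and 10.2 in DU6i, 10919 in DBA, -1.50 in DU6 and -145 in DUKs by the other (at least 10.7-fold lower). The second probe set saw a transcript in DBA alone, so that no direction can be given for Pdxdc1. Sardh, an enzyme of one-carbon metabolism, was at least 7.79-fold lower with 48.9 and 7968 in DU6i and DBA, but had a log2 ratio of 0.32 by its second probe set. Slc1a1, a glutamate carrier, was at least 9.85-fold lower with 511 and 10078, and its second probe set, with DU6i under the floor, had a log2 ratio of -0.34.

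**Figure D5:**
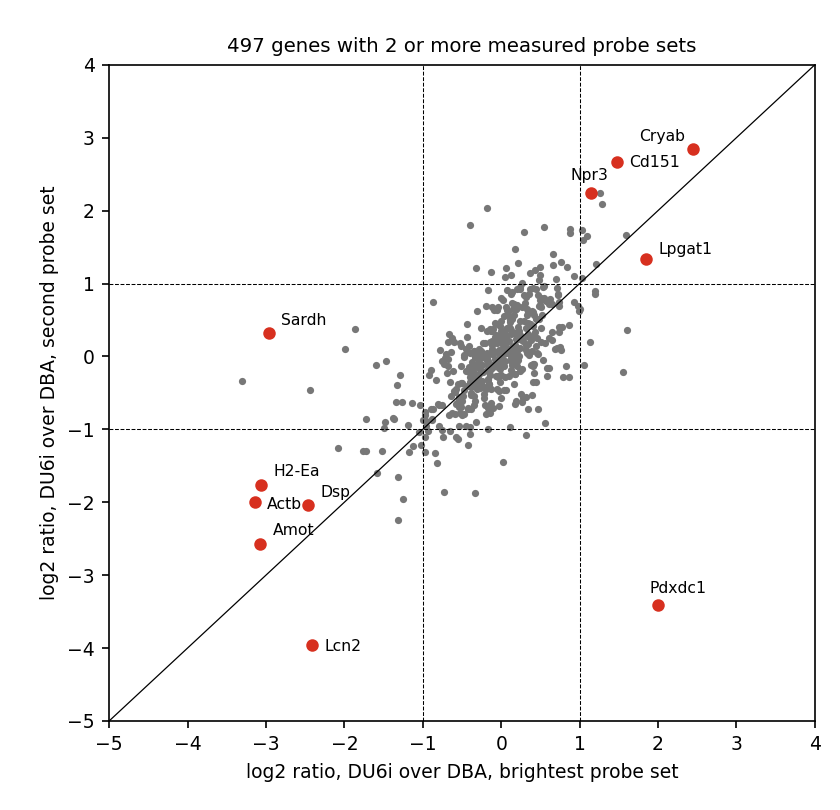
Log2 ratios of DU6i over DBA by the brightest (horizontal axis) and the second brightest (vertical axis) probe set of 497 genes. Red points are genes named in the text, the dashed lines mark 2-fold and the solid line equal values. Cryab, Cd151, Npr3 and Lpgat1 lie past 2-fold on both axes toward DU6i, Lcn2, Amot, Dsp, H2-Ea and Actb toward DBA, and Pdxdc1 is past 2-fold in opposite directions.

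Set among the 4 lines, DU6i and DBA were often the extremes of the probe sets past 2-fold. These probe sets were chosen for a wide difference between DU6i and DBA, which by itself makes the 2 lines likely extremes. The counts therefore describe the probe sets and do not show from which line a difference came. Of the 266 probe sets higher in DU6i, DU6i was the highest of the 4 lines in 221, DBA the lowest in 190, and both held in 151. Of the 371 that were lower, DBA was the highest in 280, DU6i the lowest in 299, and both held in 217. On chip A more probe sets were above the floor in DBA than in DU6i (3222 against 3045), and on chip B the numbers were alike (1811 and 1823). Of 3466 measured genes, those above the floor in 1 line only numbered 143 in DBA and 57 in DU6i, of which 26 and 5 were past 2-fold in the pair. In DU6i the brightest of them, beside Slc6a12, was Sema3c, a secreted guidance factor. It had 5646 in DU6i, 1606 in DBA, 2133 in DU6 and 1884 in DUKs (at least 2.50-fold higher). Among the genes above the floor in DBA only, the brightest beside the Svs genes, H2-Ea and Apcs was Ros1. It had 299 in DU6i, 5719 in DBA, 1668 in DU6 and 881 in DUKs (at least 2.53-fold lower), and its second probe set had a log2 ratio of -0.63.

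The control signal toward the 5′ end split the 4 lines so that DU6i and DUKs were high and DBA and DU6 low. On chip A the middle probe set of pyruvate carboxylase had 53.9% of the 3′ signal in DUKs and 15.3% in DU6. Among the probe sets higher in DU6i than in DBA, DUKs was above DU6 in 60.5%, among those lower in 36.4%, and among all measured in 45.5%. Ghr, Sptbn1, Epas1, Rpl41, Igfbp7 and Cd151 were among the genes higher in DU6i in which DUKs was also at 2-fold or more above DU6, and Fmod, Hoxb7, Amot, Egr2 and Adig among those lower in DU6i in which DU6 was that far above DUKs. Lep did not follow that split, with 12446 in DU6 and 8697 in DUKs. The part of the 5′ signal in these differences was not tested.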

How the data were processed

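RNA of epididymal fat from 1 pool of 20 males per line was measured on 1 chip A and 1 chip B array. The deposited values are linear intensities, for 6584 probe sets of chip A and 6595 of chip B. Per the labels, the authors used Data Mining Tool 1.2 besides Microarray Suite 4.0.1, and scaling was over all probe sets. Between 13.5% and 30.5% of the values of an array were negative. They have no log and were raised to the floor, as was every value at or under it. No read depth exists for arrays, and precision is set by how few there are.

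From these, log2 ratios of DU6i over DBA were computed within each chip with Python 3.11.15, numpy 2.4.6 and pandas 2.3.3, after 110 AFFX control probe sets were left out. Gene symbols come from GEO's platform annotation. On chip A 5560 probe sets had 1 symbol, 197 had several and 827 had none, and on chip B 2001, 27 and 4567. Probe sets with several symbols or none are called unnamed. A gene was represented by its probe set with the highest mean intensity over the 4 arrays of its chip. The 2-fold limit is a rule of size, with no test. The computation was tested on simulated data.

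Genes named are the 15 highest and 15 lowest ratios with both arrays above the floor, the 10 widest bounds in each direction, genes repeated or opposed by their probe sets, the brightest genes above the floor in 1 line only, list members at 2-fold or more, and textbook genes of fat. Members of a list under 2-fold are named as examples of the list. The comparison, the gene lists and this rule were chosen with earlier results of these data known. Alternatives changed the floor, the filter, the scaling, the chip and the probe set used. Promoters are RefSeq's for GRCm38.p6, matched by gene symbol.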

Additional observations from a re-analysis of the deposited data

Results flagged for a closer look

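The results below were singled out because DU6i and DBA differed by 2-fold or more one way and DU6 and DUKs, with 1 pool each, by 2-fold or more the other way. This held for 42 of the 383 genes past 2-fold in the pair, out of 3466 measured. The 22 of the 42 that the naming rule covers are given here. The difference between the contrasts was not tested, and no explanation was weighed. With DU6i over DBA given as log2 ratios, those higher in DU6i were Ghr (2.80), Sptbn1 (2.23), Rpl41 (2.20), Raly, an RNA-binding protein (1.94), Epas1 (1.60), Cd151 (1.47), Ccr2, a chemokine receptor of monocytes (1.33), Pgam1, a glycolytic mutase (1.30), Timp2 (1.21), Igfbp7 (1.10) and Ifi27 (1.08). Those lower in DU6i were C4bp (-3.50), Slc1a1 (-3.30), Emid1, a secreted protein with an EMI domain (-3.24), Actb (-3.15), Amot (-3.07), Sardh (-2.96), Egr2 (-2.84), Hoxb7 (-2.17), Fmod (-1.59), Adig (-1.22) and Elovl6 (-1.02). In DU6 over DUKs the log2 ratio of Ifi27 was -3.43, that of Adig 3.09 and that of Actb 2.04, and the others of the 22 lay nearer to 0.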

How the results depend on the processing

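No paired analysis was possible because each line had 1 pool. The counts of 266 higher and 371 lower probe sets followed the floor: they were 474 and 637 with the floor halved and 147 and 180 with it doubled. Without probe sets over 10000 the higher count was 169, and with both arrays above the floor the lower count was 230. No list median that lay more than the technical SD from 0 changed sign under an alternative that left at least 3 of its genes. Gland secretions had 2 genes with both arrays above the floor, with a median of 0.55 against -1.58 over all 6 measured. In all, 588 of 624 alternatives stayed within that SD of the main value. With every probe set entered, the medians of adipogenic regulators, mast cell, skeletal muscle, gland secretion, interferon and homeobox genes were 0.0, and those of cholesterol synthesis -0.066, epithelial -0.64, male tract -0.17 and germ cell genes -0.06. Quantile normalisation took the adipocyte median to 0.36. By chip B alone the medians were 0.33 for adipocyte markers, 0.12 for adipokines, -0.94 for mast cell, -3.14 for male tract, -3.14 for gland secretion, -0.84 for interferon and -1.10 for homeobox genes, and by chip A alone 0.81 for lipid uptake and -0.17 for male tract genes. Without probe sets over 10000 the medians of fatty acid synthesis, glycolysis and antigen presentation, nearer to 0 before, were -0.38, -0.36 and -0.41. They were -0.82 for mesothelial and -1.05 for male tract genes under the same limit, and with both arrays above the floor -0.94 for mast cell and -0.77 for homeobox genes. Gland secretions stood at -1.03 with the floor halved, -2.14 with it doubled and -2.155 with the floor added to each intensity. The ratio of Pdxdc1 turned to -0.71 as the median over its probe sets, and that of Sardh to 0.32 with both arrays above the floor, because other probe sets then stand for these genes. Apart from these, the 163 named genes at 2-fold kept their direction under all alternatives in which they were measured, and 102 stayed at 2-fold with the floor doubled, 112 with the floor added and 143 after quantile normalisation.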
